A study of Mus musculus with 15 samples.

Results

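Hematopoietic stem cells (HSCs) that had kept the most of a histone label, the GFP4 fraction, were compared with Total HSCs, the same sort left undivided. A gene was a member of the comparison when its linear value reached 1 in 3 or more libraries, which gave 27994 of the 31298 gene symbols measured. The 309 members whose symbols mark immunoglobulin genes are described apart from the other 27685. Both groups had 3 libraries, and GFP3, GFP2 and GFP1, the fractions with successively lower numbers, had 3 each and serve here to place the values of GFP4 and Total.

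All 15 libraries came from bone marrow of hCD34-tTA x TetO-H2BGFP mice. In these mice a tetracycline transactivator under human CD34 regulatory sequence drives a histone H2B fused to green fluorescent protein, and doxycycline in the drinking water stops its production. The label is therefore loaded only where that transgene is active. The sort took LSK/CD48-/Flk2-/CD150+ cells, that is lineage-negative cells with Sca1 and c-Kit that lack CD48 and Flk2 and carry CD150. In each group replicate I came from mice of 5 months after 12 weeks of doxycycline, replicate II from mice of 5.5 months after 14 weeks and replicate III from mice of 6.5 months after 16 weeks. GFP4 differs from Total by the gate on the label, and Total holds cells of every label level, those of the GFP4 gate included. The labels do not say which end of the numbering held the most label, and a higher number is taken here to mean more label. They also do not say whether a library was 1 mouse or a pool, so the p-values reflect only how far these libraries differed among themselves.

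Each division shares the stable H2B-GFP histones between the daughter cells, so that cells which divide rarely stay bright. In mouse marrow such label-retaining HSCs are known as the fraction with the longest-lasting repopulation after transplantation. Their entry into the cell cycle is governed by the G1 kinases Cdk4 and Cdk6, their inhibitors and the E2F factors, and their first steps toward platelets and red cells by factors such as Gata1 and Klf1.

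Values were log2 expression per gene, all libraries having been given one common distribution. The lowest value in the file was 0.1375 and the highest 19.12, and differences are given on this log2 scale as GFP4 minus Total, with limma's moderated standard error (SE) and a Benjamini-Hochberg adjusted p over all 27994 genes. Genes of the sort gate were in place. Kit, the stem cell factor receptor c-Kit, had 15.73, 16.14 and 15.69 in GFP4 replicates I, II and III and 15.69, 15.39 and 14.63 in Total. Slamf1, which encodes CD150, had 11.11, 11.31 and 11.48 in GFP4 and 11.22, 11.05 and 11.14 in Total. Neither passed the test (adjusted p = 0.149 for Kit and 0.452 for Slamf1). Of the 15 gate genes tested 0 were higher and 2 were lower in GFP4, Cd34 among them. Cd34 had 12.27, 12.03 and 12.08 in GFP4 and 12.98, 12.76 and 12.82 in Total, a fall of 0.73 in the mouse gene (difference -0.73, SE 0.09, adjusted p = 4.97e-05).

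With the immunoglobulin genes left out, the first principal component of 10229 genes held 51.5% of the variance and separated the groups. The GFP4 libraries lay at -37.6, -29.3 and -31.4 and the Total libraries at 17.3, 16.4 and 14.6. Between them were the 3 GFP3 libraries, from -22.7 to -11.8, and the 3 GFP2 libraries, from -7.01 to 9.95, while the GFP1 libraries lay beyond Total, from 33.8 to 37.7. Total thus sat between GFP2 and GFP1. The second component (12.6%) held replicate I of GFP3, GFP2, GFP1 and Total between -22.7 and -13.9 and put their replicates II and III between 3.43 and 17.3. In GFP4 it was replicate II that lay at -14.8, with replicate I at 2.06 and replicate III at 7.24. Whether the numbers of GFP4 replicates I and II were exchanged was not tested, and their ages and doxycycline times are given as labelled.

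**Figure D1:**
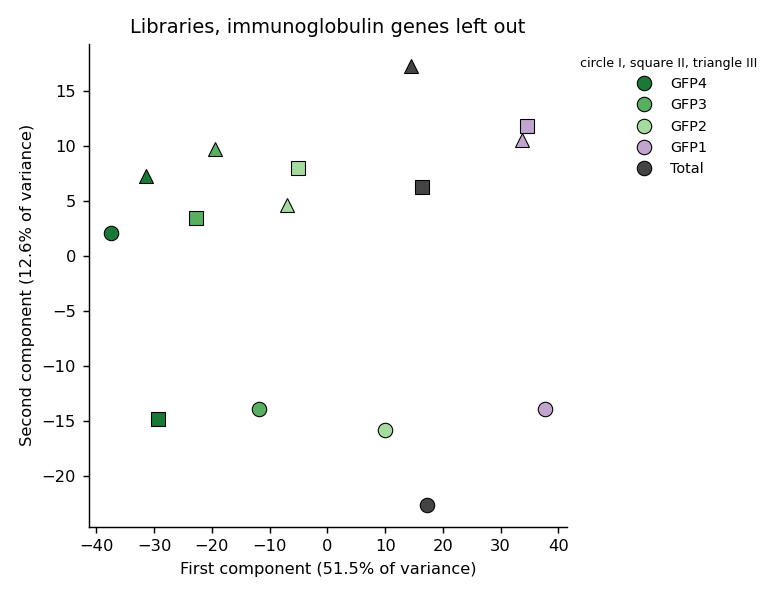
Libraries on the first 2 principal components of genes averaging 10 ppm or more, immunoglobulin genes left out (colours mark the 5 groups, circles, squares and triangles replicates I, II and III). GFP4 lies at -37.6 to -29.3 on the first component, and Total at 14.6 to 17.3 lies between GFP2 and GFP1.

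Outside the immunoglobulin genes, 1317 genes were higher in GFP4 than in Total (4.76% of 27685) and 1393 were lower (5.03%). Of the 10246 that averaged 10 ppm or more over the GFP4 and Total libraries, 1144 were higher and 1167 lower, a larger share each way. Small counts on the gene lists below are to be read against both shares. Changes of at least 2-fold were found for 259 genes upward (0.936%) and 458 downward (1.65%). The count of higher genes fell to 856, 868 or 841 when GFP4 replicate I, II or III was left out, while the count of lower genes ranged from 951 to 1345 over the 6 libraries left out in turn. With the immunoglobulin genes counted in, 4.70% of the 27994 genes were higher and 5.29% lower. The 3 GFP4 libraries lay above the 3 Total libraries in 11.7% of the 27685 genes and below them in 10.2%. The median difference of all genes other than immunoglobulin genes was 0.07. Against the other fractions, GFP4 differed from GFP3 in 16 genes (4 higher, 0.0144%, and 12 lower, 0.0433%), from GFP2 in 467 higher (1.69%) and 750 lower (2.71%), and from GFP1 in 2872 higher (10.4%) and 2410 lower (8.71%). Set against the same Total libraries, GFP3 had 0.679% of genes higher and 1.31% lower, GFP2 0.0108% and 0.188%, and GFP1 0.238% and 1.42%.

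**Figure D2:**
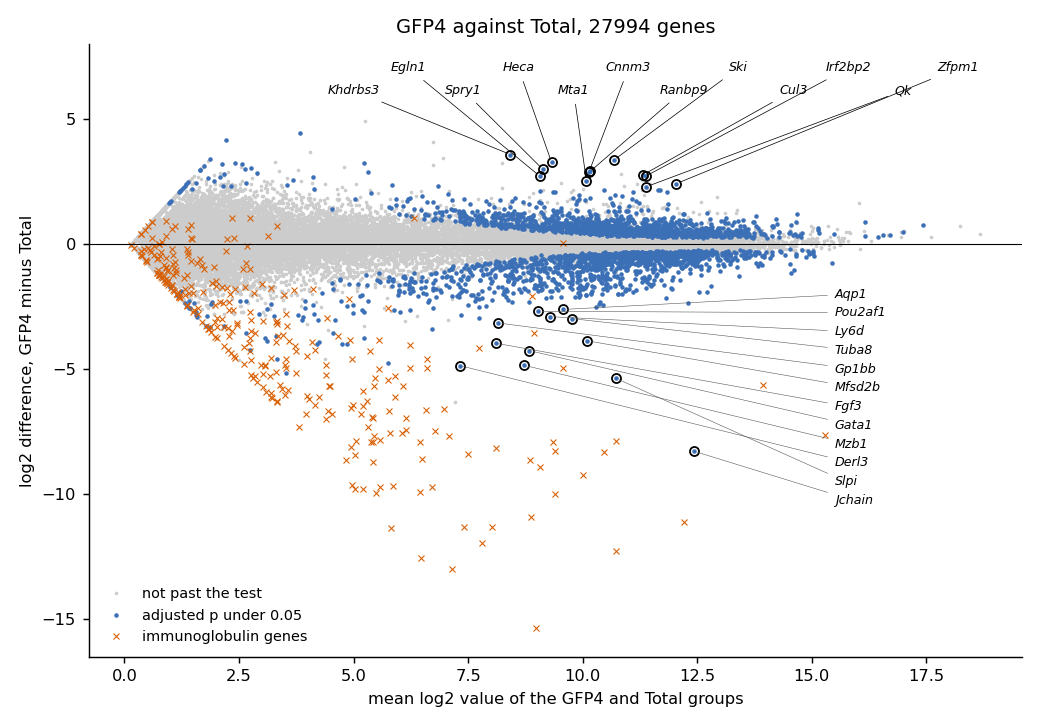
The log2 difference of GFP4 minus Total against the mean log2 value of the 2 groups, for 27994 genes (grey points did not pass the test, blue points had an adjusted p under 0.05, orange crosses are immunoglobulin genes, circles are the 12 largest rises and 12 largest falls). Immunoglobulin genes reach differences of -15.36, far below the named falls such as Jchain at -8.28, and the named rises lie between 2.29 and 3.58.

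Genes known for long-term HSCs were higher in GFP4. Of 40 genes on the HSC signature list 21 rose and 1 fell, with a median difference of 0.60. Of all genes 4.76% rose and 5.03% fell, and of the 10246 averaging 10 ppm or more 1144 rose and 1167 fell. Hlf, a transcription factor that maintains HSCs (chromosome 11, 90336536 to 90390895, GRCm38), had 14.63, 14.83 and 14.66 in GFP4 and 13.85, 13.66 and 13.63 in Total. All GFP4 libraries were above all Total libraries, with a difference of 0.99 (SE 0.09, adjusted p = 1.36e-06). Sult1a1, a sulfotransferase long used among HSC-enriched transcripts, had 13.19, 13.41 and 13.46 in GFP4 and 12.05, 11.97 and 12.25 in Total, a rise of 1.26 (SE 0.11, adjusted p = 1.56e-06). Its mean was 10.27 in GFP1, so the fraction at the other end of the label range lay below Total.

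Among transcription factors of the list, Mecom, whose product Evi1 sustains HSC self-renewal, rose by 0.83 and Mllt3, a partner of the elongation machinery, by 1.05 (adjusted p = 8.79e-05 and 0.000196). Fgd5, a guanine nucleotide exchange factor whose locus marks HSCs in reporter mice, had 12.54, 12.53 and 12.67 in GFP4 and 11.46, 11.54 and 11.82 in Total (difference 0.97, SE 0.15, adjusted p = 0.000318). Gata3 (0.54), Nkx2-3 (0.85), Robo4 (0.61), Mmrn1 (0.74), Abcg2 (0.49) and Txnip (0.90) rose as well. Several genes used to define HSCs did not pass the test. Procr, the endothelial protein C receptor, had 12.86, 12.62 and 13.03 in GFP4 and 11.42, 11.84 and 12.00 in Total. Its groups did not overlap, but the difference of 1.09 came with an adjusted p of 0.0877. Vwf, the von Willebrand factor expressed by platelet-biased HSCs, had 13.08, 13.63 and 13.30 in GFP4 and 13.53, 12.97 and 13.64 in Total, and the groups overlapped (adjusted p = 0.954).

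Cell cycle genes were lower in GFP4 across nearly their whole lists. Of 42 S phase genes 40 fell and 0 rose, with a median difference of -1.01, and of 52 G2 and M phase genes 50 fell and 0 rose, with a median of -1.68. The mean log2 level of the G2 and M phase list was 9.72 to 10.13 in the GFP4 libraries and 11.29 to 11.54 in the Total libraries, with GFP3 at 10.23 to 11.11, GFP2 at 10.92 to 11.49 and GFP1 at 11.85 to 12.06. Against GFP2, a comparison without the Total libraries, 37 S phase and 50 G2 and M phase genes were lower in GFP4 and 0 were higher. The S phase exceptions against Total were Rfc3 (-0.23, adjusted p = 0.22) and Brca1 (-1.08, adjusted p = 0.061). Those of G2 and M phase were Ect2 (-0.67, adjusted p = 0.0754) and Pttg1, the securin, at 0.34 (adjusted p = 0.203).

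Lig1, the ligase that joins Okazaki fragments, had 10.49, 10.69 and 10.75 in GFP4 and 12.04, 12.03 and 12.14 in Total, a fall of 1.43 (SE 0.11, adjusted p = 4.06e-07). Cdca7, a target of E2F and Myc, had 11.95, 12.21 and 12.06 in GFP4 and 13.09, 13.14 and 13.03 in Total (difference -1.01, adjusted p = 1.01e-06). The groups of both genes were well apart. Cdca8, the borealin subunit of the chromosomal passenger complex, had 9.81, 10.18 and 9.96 in GFP4 and 11.86, 11.61 and 12.11 in Total, a fall of 1.87 (SE 0.17, adjusted p = 2.47e-06). Its partners Incenp, the scaffold, and Aurkb, the kinase, fell by 1.37 and 1.98. Mki67, the proliferation antigen Ki-67, fell by 1.90 (adjusted p = 0.000893), Kif4, a chromosome-bound kinesin, by 2.13, and the licensing factors Cdc6 and Cdt1 by 1.52 and 1.38.

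The stretches of 120 bases just before the RefSeq start of Cdca7 (chr2:72476099-72476218, plus strand) and Cdca8 (chr4:124936918-124937037, minus strand; both GRCm38.p6) are shown because they carry the letter patterns by which many S phase and mitotic promoters are known. Capitals mark matches on either strand to the E2F forms TTTCCCGC, TTTGGCGC and TTTCGCGC or to the CCAAT box, and in Cdca8 also to TTTGAA, the core of the cell cycle genes homology region.
Cdca7: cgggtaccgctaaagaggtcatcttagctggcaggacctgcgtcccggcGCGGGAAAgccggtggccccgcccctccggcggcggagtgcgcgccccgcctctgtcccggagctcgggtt
Cdca8: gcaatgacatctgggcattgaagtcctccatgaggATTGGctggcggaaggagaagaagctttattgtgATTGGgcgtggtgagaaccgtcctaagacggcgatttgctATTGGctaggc

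Cdca7 held 1 E2F form and Cdca8 held 3 CCAAT boxes in these stretches. Lig1 had 3 RefSeq windows, and the stretch of the first held neither pattern. In the 250 bases before the start, an E2F form was found in 26.5% of the 34 S phase genes with a RefSeq window and in 2.43% of all 15386 tested genes with one. CCAAT was found in 72.7% of 44 G2 and M phase genes and 58.8% of the S phase genes, against 39.4% of all. TTTGAA was found in 36.4% of the G2 and M phase genes and in 15.6% of all. Each motif was counted on both strands and on its own, with overlaps allowed. For these percentages a gene counted when any of its RefSeq windows held the motif. These are descriptions of letters, and binding at them was not measured.

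Among 27 regulators of G1 entry and quiescence 4 rose and 14 fell. Cdk6, the G1 kinase whose level sets the pace of HSC cycle entry (chromosome 5, 3341485 to 3531008), had 11.67, 11.52 and 11.56 in GFP4 and 13.51, 13.56 and 13.37 in Total. The gap of 1.90 between the groups far exceeded the spread within them (difference -1.90, SE 0.10, adjusted p = 6.91e-10). Its relatives Cdk4 and Cdk2 fell by 0.48 and 0.44. The E2F factors E2f1 (-1.44), E2f2 (-1.02), E2f3 (-0.51) and E2f4 (-0.47) and the cyclins Ccne1 (-0.92) and Ccne2 (-1.08) were lower too. The inhibitors went both ways. Cdkn1c, which encodes p57 and holds HSCs in quiescence, had 11.59, 11.36 and 11.63 in GFP4 and 10.33, 10.25 and 10.82 in Total, a rise of 1.06 (SE 0.20, adjusted p = 0.0026). Cdkn2c, which encodes the Cdk4 and Cdk6 inhibitor p18, had 7.91, 8.53 and 8.58 in GFP4 and 10.05, 10.13 and 10.47 in Total, a fall of 1.87 (SE 0.21, adjusted p = 1.22e-05). The pocket proteins split in the same way, with Rbl2 up by 0.70 and Rbl1 down by 0.71. Foxo1 (0.53) and the imprinted growth suppressor Ndn (0.75) rose, whereas the D-type cyclins Ccnd1, Ccnd2 and Ccnd3 did not pass the test (adjusted p = 0.738, 0.0856 and 0.911).

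**Figure D3:**
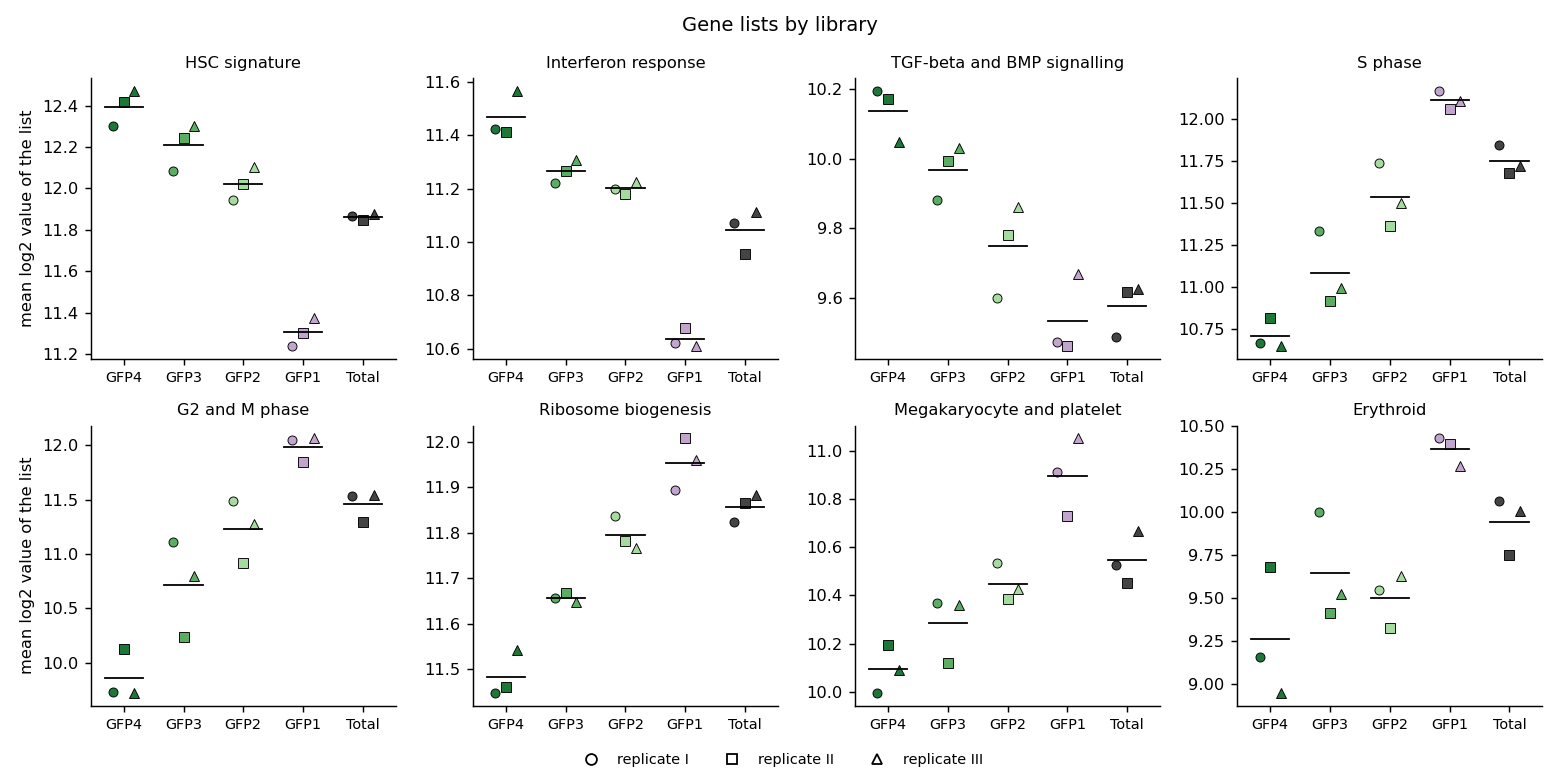
Mean log2 value over the tested members of 8 gene lists in every library (y axis of each panel; groups on the x axis, bars are group means, symbols are replicates I, II and III). The G2 and M phase list lies at 9.72 to 10.13 in GFP4 and 11.29 to 11.54 in Total, and the HSC signature at 12.30 to 12.47 in GFP4 and 11.85 to 11.87 in Total.

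Genes of the red cell and platelet lineages were in part far lower in GFP4. Gata1, the factor that opens both programmes (chromosome X, 7959260 to 7978071), had 5.91, 7.36 and 6.85 in GFP4 and 11.08, 10.71 and 11.11 in Total. No library of one group came near the other, and the fall of 4.26 (SE 0.37, adjusted p = 1.74e-05) was among the 12 largest. Its group means were 8.01 in GFP3, 9.36 in GFP2 and 11.74 in GFP1, and GFP4 lay below GFP2 as well (adjusted p = 0.0015). Klf1, the erythroid factor downstream of Gata1, fell by 1.96 (adjusted p = 0.000782). Epor, the erythropoietin receptor, had 7.42, 8.34 and 7.75 in GFP4 and 9.61, 9.39 and 9.91 in Total, a fall of 1.80 (SE 0.19, adjusted p = 8.33e-06). Mfsd2b, which exports sphingosine 1-phosphate from red cells and platelets, had 8.05, 8.56 and 7.89 in GFP4 and 12.09, 11.96 and 12.05 in Total (difference -3.87, SE 0.26, adjusted p = 1.74e-06). Aqp1, the water channel of red cells, fell by 2.61. Of 24 erythroid genes 8 fell and 2 rose, Nfe2 and Zfpm1, and the count of falls was 5 without Total replicate I. Nfe2, at 0.29, lost its call when GFP4 replicate II or III or Total replicate II was left out (adjusted p = 0.104, 0.164 and 0.192 in that order) and when the common distribution was rebuilt without immunoglobulin genes (0.124).

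Of 29 megakaryocyte and platelet genes 10 fell and 4 rose. Those that fell included the subunits of the receptor for von Willebrand factor, Gp1ba (-1.36), Gp1bb (-3.15), Gp5 (-2.13) and Gp9 (-0.89). Gp1bb had 6.45, 6.55 and 6.72 in GFP4 and 9.36, 9.29 and 10.53 in Total, and Gp5 had 8.75, 8.78 and 8.76 in GFP4 and 10.84, 10.72 and 11.11 in Total. The GFP4 libraries of both genes lay within 0.3 of each other, well below Total. Itga2b, the integrin chain CD41, had 10.86, 11.30 and 11.17 in GFP4 and 13.40, 13.26 and 13.79 in Total (difference -2.37, SE 0.21, adjusted p = 1.5e-05). Pf4, a platelet chemokine, fell by 2.17. In the other direction, Mylk, a myosin light chain kinase, and Clec1b, the platelet receptor CLEC-2, rose by 0.80 and 1.05. The count of rises was 2 without GFP4 replicate II or without Total replicate II. Against GFP2, 6 platelet genes and 4 erythroid genes were lower in GFP4 and 2 and 0 were higher.

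Fgf3 and Tuba8 followed the same order of groups without belonging to these lists. Fgf3, a fibroblast growth factor, had 5.08, 6.43 and 6.85 in GFP4 and 9.76, 9.88 and 10.60 in Total (difference -3.96, adjusted p = 0.000338), with means of 7.57, 8.95 and 10.88 in GFP3, GFP2 and GFP1. Tuba8, an alpha-tubulin, had 8.14, 8.31 and 8.36 in GFP4 and 11.13, 11.29 and 11.32 in Total (difference -2.98, SE 0.17, adjusted p = 4.99e-09). Its GFP4 libraries were below those of every other group.

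A second set of falls had no such order among the fractions and went with antibody genes. Immunoglobulin genes took 0.0114%, 0.0509% and 0.0764% of the summed linear values in GFP4 replicates I, II and III and 4.35%, 5.50% and 4.76% in Total. They took 0.00953% to 0.0626% in the GFP3 and GFP2 libraries and 4.93% to 5.28% in GFP1. Because all libraries share 1 distribution, these shares follow ranks and are not shares of RNA. Of 309 immunoglobulin genes tested 89 were lower in GFP4 (28.8%) and 0 were higher, and the count of lower genes ranged from 57 to 100 with 1 library left out. They comprise 79 of 293 variable segments and 10 of 13 constant genes, and the symbol rule also took in 3 genes that are no antibody genes, Ighmbp2, Iglon5 and Igll1. Members could pass the filter only through groups where they are high. Variable segments above a log2 of 8 numbered 0 to 3 in the GFP4 libraries, 60 to 83 in Total and 116 to 133 in GFP1. The direction of these counts is thus in part set by the filter, and they are given as descriptions. In these bulk samples, fewer cells of a type and less RNA per cell cannot be told apart.

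Of the constant genes, Igkc, the kappa light chain, had 9.43, 12.08 and 12.88 in GFP4 and stood at 19.12, the highest value of the common distribution, in all 3 Total libraries (difference -7.65, SE 0.87, adjusted p = 0.000307). The ceiling means that its Total value carries no spread. Ighg2c and Ighg2b, heavy chains of the IgG2 class, fell furthest. Ighg2c had 1.54, 0.14 and 2.22 in GFP4 and 15.90, 17.13 and 16.94 in Total (difference -15.36, adjusted p = 8.57e-07), and Ighg2b had 3.19, 4.06 and 6.51 in GFP4 and 16.57, 17.02 and 17.02 in Total. Igha, the IgA heavy chain, had 1.96, 4.81 and 13.22 in GFP4 and 17.29, 18.75 and 17.29 in Total. GFP4 replicate III thus held far more of it than its companions. The Igha call (adjusted p = 0.0428) was lost without GFP4 replicate I (0.155), GFP4 replicate II (0.131), Total replicate I (0.0814), Total replicate II (0.11) or Total replicate III (0.0913). Ighm, the IgM heavy chain, had 10.54, 12.64 and 10.14 in GFP4 and 17.75, 14.77 and 17.75 in Total (adjusted p = 0.00603). Its call was lost in a fit of only the 6 GFP4 and Total libraries (0.107), and with replicate number as a block there (0.327). With that block the Igkc call was lost too (0.113).

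The remaining constant genes were Iglc1 (-8.32), Iglc2 (-4.96), Iglc3 (-3.54), Ighg3 (-8.60) and Ighd (-2.10), which fell, and Ighg1, Ighe and Iglc4, which did not pass the test (adjusted p = 0.422, 0.666 and 0.114). The Ighg3 call was lost without GFP4 replicate I (adjusted p = 0.0652) or GFP4 replicate III (0.0618). The Ighd call was lost without GFP4 replicate I (0.095), GFP4 replicate III (0.14), Total replicate I (0.0665), Total replicate II (0.117) or Total replicate III (0.0501). Iglc4 passed without Total replicate III (adjusted p = 0.00998). The variable segments with the smallest p were Ighv3-6, Ighv8-8 and Igkv3-11. Ighv3-6 had 0.14, 1.69 and 0.14 in GFP4 and 13.13, 14.21 and 13.61 in Total, Ighv8-8 had 0.35, 0.14 and 0.14 in GFP4 and 10.95, 14.02 and 13.25 in Total, and Igkv3-11 had 0.14 in all 3 GFP4 libraries and 7.40, 5.98 and 5.49 in Total. The value 0.14 is the lowest of the file, so the size of these differences is set by that floor and no fold is given. These segments entered the test through the groups where they are high. The floor was also reached by Ighg2c in GFP4 replicate II and by Ighg3 in GFP4 replicate III. The value of a single variable segment is uncertain, because near-identical segments can share reads.

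Genes of the secretory apparatus of plasma cells followed the antibody genes. On the plasma cell list 18 of 20 genes fell and 0 rose, with a median of -1.19. The summed level of the list was 1174 to 1319 ppm in GFP4 and 3787 to 7531 ppm in Total. Against GFP2 only 2 of the 20 were lower. Jchain, which joins IgM and IgA into polymers (chromosome 5, 88519809 to 88527891), had 4.76, 8.44 and 11.67 in GFP4 and 16.14, 17.54 and 16.04 in Total. The GFP4 libraries spread over almost 7 log2 units, yet all lay below Total (difference -8.28, SE 1.81, adjusted p = 0.0151). That call was lost without GFP4 replicate I (adjusted p = 0.0529) or Total replicate II (0.0512). Mzb1, an endoplasmic reticulum protein of antibody-secreting cells, had 5.79, 6.51 and 6.62 in GFP4 and 10.56, 11.75 and 11.15 in Total (difference -4.85, SE 0.36, adjusted p = 1.14e-06), with means of 6.28 in GFP3, 6.05 in GFP2 and 11.53 in GFP1. Derl3, which serves the disposal of misfolded secretory proteins, fell by 4.86. Slpi, a secreted protease inhibitor that is not on the plasma cell list, fell by 5.36. Its means were 7.89 in GFP3, 8.22 in GFP2 and 13.66 in GFP1, and its cell of origin was not tested.

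The defining factors of plasma cells were lower in the same way. Sdc1, the surface marker CD138, had 8.14, 8.28 and 8.22 in GFP4 and 9.86, 10.17 and 10.01 in Total (difference -1.80, adjusted p = 5.45e-06). Prdm1, whose product Blimp-1 drives plasma cell formation, fell by 1.82, Irf4 by 2.45 and Xbp1, the regulator of secretory capacity, by 0.47. On the B cell list 7 of 12 genes fell and 0 rose. Cd79a, the signalling chain of the B cell receptor, had 9.25, 9.46 and 8.95 in GFP4 and 11.10, 12.28 and 11.24 in Total (difference -2.32, adjusted p = 0.00167). The coactivator Pou2af1 and the early B lineage antigen Ly6d fell by 2.69 and 2.90. The B cell count was 3 without GFP4 replicate I, GFP4 replicate III or Total replicate II and 4 without Total replicate I. The summed B cell level was 97.8 to 139.7 ppm in GFP4 and 230.5 to 460.7 ppm in Total, and 0 of the 12 genes passed the limma test between GFP4 and GFP2.

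**Figure D4:**
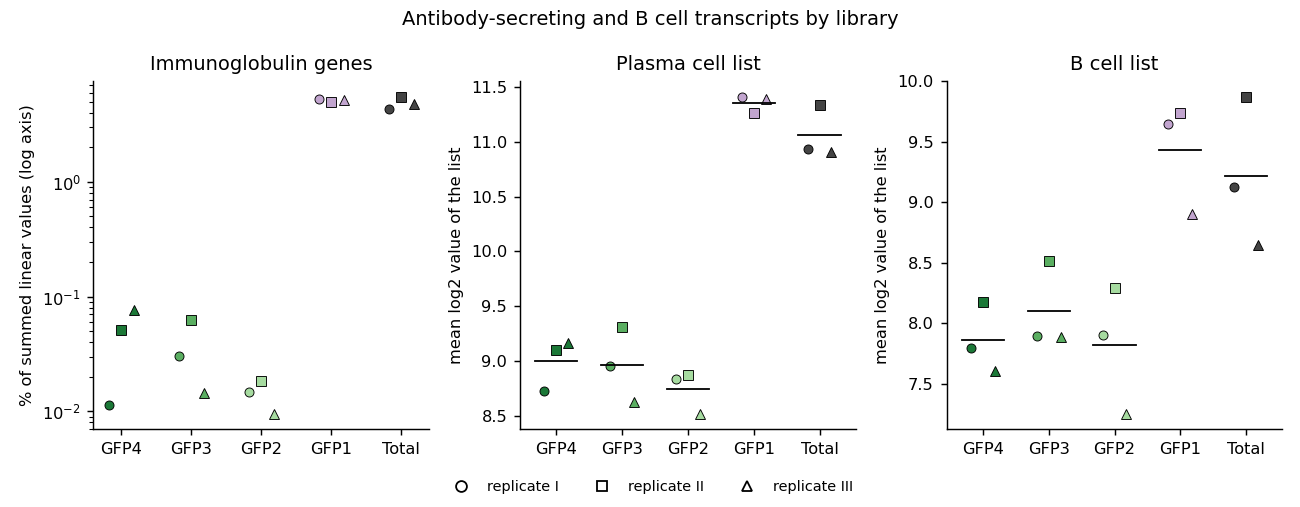
Immunoglobulin genes as percent of the summed linear values (log axis), and the mean log2 value of the plasma cell and B cell lists, in every library by group (symbols are replicates I, II and III, bars in the 2 list panels are group means). GFP4 lies at 0.0114% to 0.0764% and Total at 4.35% to 5.50%, and the plasma cell list lies at 8.72 to 9.17 in GFP4 and 10.91 to 11.33 in Total.

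Against Total, 16 of the 20 plasma cell genes were also lower in GFP3, whereas in GFP1 0 were lower and 1 was higher. The part of the plasma cell genes in the falls of the cell cycle, erythroid and platelet genes was not tested. The plasma cell list lay at 8.72 to 9.17 in GFP4 and 8.52 to 8.87 in GFP2, and between these groups 37 S phase, 50 G2 and M phase, 4 erythroid and 6 platelet genes were lower in GFP4. The same lists had 40, 50, 8 and 10 genes lower against Total. On the lymphoid list 6 of 24 genes fell and 1 rose. Those that fell were Ikzf3, Pax5, Tcf3, Blnk, Cd79a and Cd79b, of which only 2 were called without GFP4 replicate III. The 1 rise was Notch1, a receptor that directs T lineage commitment, with 11.80, 11.80 and 11.63 in GFP4 and 10.82, 10.84 and 11.25 in Total (difference 0.77, SE 0.13, adjusted p = 0.000471).

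Few genes of other cell types passed the test, though some of their lists stood lower in GFP4. On the T and NK cell list 1 of 14 genes rose and 2 fell, with a median of -1.19. Its mean log2 level was 6.49 to 6.87 in GFP4 and 7.34 to 8.34 in Total, without overlap, and 7 of the 14 genes had all GFP4 libraries below all Total libraries, against 10.2% of all genes. Klrb1c, which encodes NK1.1, rose by 1.05, a call lost without GFP4 replicate III (adjusted p = 0.0533), and Nkg7 and Cd2 fell by 2.38 and 2.00. Without Total replicate I the count of falls on that list was 4. Of 25 granulocyte and monocyte genes 0 rose and 1 fell, Ly6c2. It had 11.72, 10.38 and 11.02 in GFP4 and 12.23, 12.96 and 13.25 in Total, and its call (adjusted p = 0.0442) was lost without GFP4 replicate II (0.15), GFP4 replicate III (0.114), Total replicate II (0.112) or Total replicate III (0.138). Neutrophil genes (12 tested) summed to 2499 to 6581 ppm in GFP4 and 1728 to 4597 ppm in Total, and macrophage genes (12 tested) to 154.5 to 511.2 ppm in GFP4 and 205.7 to 688.7 ppm in Total. Neither list had a gene that passed the limma test, and the ranges of GFP4 and Total overlapped on both lists. Of 11 mast cell, basophil and eosinophil genes 1 fell, Cpa3 (-2.04), and the list mean was 3.58 to 4.74 in GFP4 and 5.20 to 6.08 in Total, again without overlap. The part of these cell types in the other results was not tested. On the endothelial and stromal list 2 of 12 rose, the junction protein Cldn5 (1.50) and Emcn (0.62). Emcn lost its call without GFP4 replicate I (0.0614), GFP4 replicate II (0.0606) or Total replicate III (0.0754).

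The 12 largest rises were of genes with varied roles, RNA binding, transcription and ubiquitin transfer among them. Khdrbs3, an RNA-binding splicing regulator (chromosome 15, 68928420 to 69101211), had 10.23, 10.16 and 10.25 in GFP4 and 5.81, 6.77 and 7.32 in Total, a rise of 3.58 (SE 0.76, adjusted p = 0.0116). Ski, a co-repressor that restrains SMAD signalling (chromosome 4, 155154075 to 155222592), had 12.55, 12.30 and 12.21 in GFP4 and 8.83, 8.66 and 9.50 in Total, a rise of 3.35 (SE 0.65, adjusted p = 0.00795). Heca, the homologue of Drosophila headcase, had 11.02, 10.90 and 10.94 in GFP4 and 7.44, 7.56 and 8.08 in Total, a rise of 3.26 (SE 0.62, adjusted p = 0.00633). The GFP4 libraries of all 3 genes lay close together and more than 2 units above Total.

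The other members of the 12 were Spry1 (2.99), an inhibitor of receptor tyrosine kinase signalling, Ranbp9 (2.92), a ubiquitin ligase scaffold, Cnnm3 (2.87), of the cyclin M magnesium transporters, and Cul3 (2.78), the scaffold of BTB-type ubiquitin ligases. They also held Irf2bp2 (2.72), a co-repressor, Egln1 (2.72), the prolyl hydroxylase PHD2 that marks hypoxia-inducible factors, Mta1 (2.52), of the NuRD complex, Zfpm1 (2.42), the Gata1 cofactor FOG1, and Qk (2.29), an RNA-binding protein. Their adjusted p ran from 0.00432 for Irf2bp2 to 0.0449 for Zfpm1.

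In these genes the replicates of the middle fractions did not lie together. Ski had 8.81, 9.13 and 11.90 in GFP3 replicates I, II and III, so that replicate III lay near the GFP4 level and the others near Total. Replicate III was the highest library in 11 of the 12 genes in GFP3 and in 11 of the 12 in GFP2. The median range between the 3 libraries was 0.28 in GFP4, 1.36 in GFP3, 2.35 in GFP2, 0.77 in GFP1 and 0.98 in Total. Over all 10246 genes other than immunoglobulin genes that averaged 10 ppm or more it was 0.23 in GFP4, 0.24 in GFP3, 0.23 in GFP2, 0.22 in GFP1 and 0.35 in Total, and replicate III was the highest GFP3 library in 36.9% of them. Length of doxycycline, age and library number go together in these samples and cannot be told apart. Removing single libraries ended 6 of the 12 calls. Zfpm1 and Mta1 lost theirs without any of GFP4 replicate I, II or III or Total replicate I or II, with adjusted p of 0.0981 to 0.126 for Zfpm1 and 0.0942 to 0.123 for Mta1. Spry1 (0.0595 to 0.0907) and Cul3 (0.0517 to 0.0585) lost theirs without the same 5 libraries. Cnnm3 (0.0561 to 0.0625) lost its call without any GFP4 library or Total replicate II, and Qk (0.0583 to 0.0748) without any GFP4 library or Total replicate I.

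**Figure D5:**
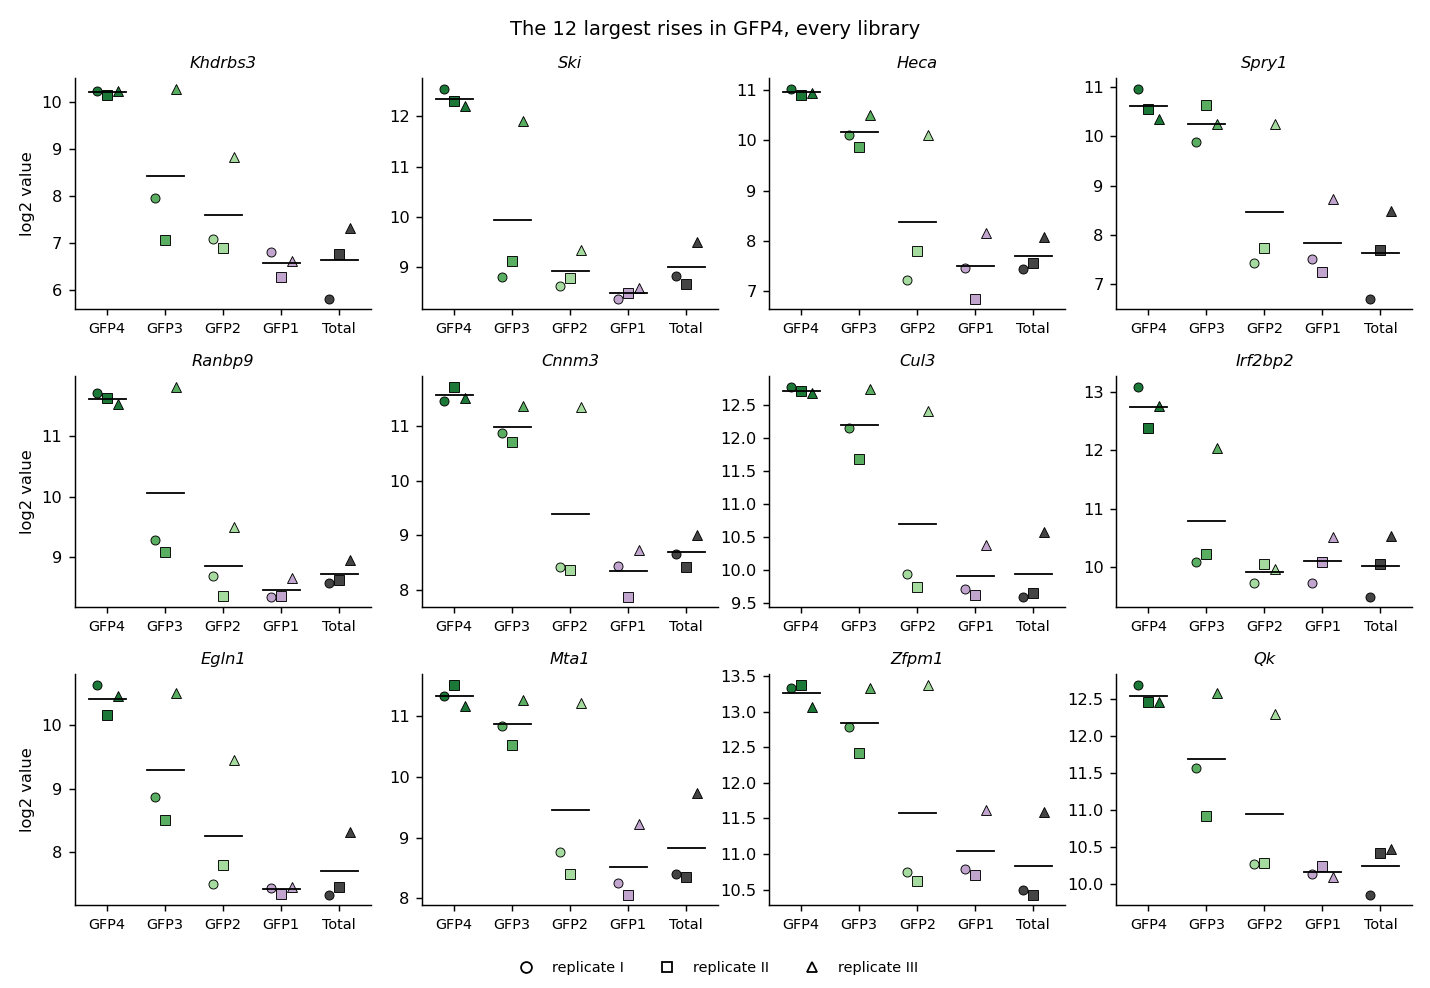
Log2 values of the 12 genes with the largest rises in every library (y axis of each panel; groups on the x axis, bars are group means, symbols replicates I, II and III). In GFP4 the libraries lie close together, with a median range of 0.28, whereas in GFP3 and GFP2 replicate III stands highest in 11 of the 12 genes each.

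Genes that rose had longer transcripts than genes that fell. By the longest GENCODE transcript, the median length of genes averaging 10 ppm or more was 4198 bases for the 1117 higher in GFP4 and 2679.5 bases for the 1132 lower, against 3451.5 bases for all 9944. The corresponding median GC contents were 48.3%, 50.5% and 49.2%. The part of transcript length in the calls was not tested.

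Interferon-stimulated genes were moderately higher. Of 30 genes 14 rose and 1 fell, with a median difference of 0.48. Ifi44 had 12.60, 12.38 and 12.48 in GFP4 and 11.76, 11.64 and 11.38 in Total, a rise of 0.90 (SE 0.10, adjusted p = 8.64e-06). Gbp2, an interferon-induced GTPase, had 12.11, 12.06 and 12.26 in GFP4 and 11.32, 11.36 and 11.45 in Total, a rise of 0.77 (SE 0.09, adjusted p = 2.94e-05). In both genes every GFP4 library exceeded every Total library. Of the signalling factors, Stat2 (0.53), Irf9 (0.55), Irf1 (0.59) and Irf7 (0.51) rose together with the antiviral genes Ifit1 (0.88), Oasl2 (0.60) and Rsad2. Ifi27 fell by 0.34, a call lost without GFP4 replicate I (adjusted p = 0.07) or GFP4 replicate III (0.0552). The list mean was 11.41 to 11.56 in GFP4, 11.22 to 11.31 in GFP3, 11.18 to 11.22 in GFP2, 10.61 to 10.68 in GFP1 and 10.96 to 11.11 in Total.

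The 120 bases before the Gbp2 start (chr3:142620543-142620662, plus strand, GRCm38.p6, RefSeq) are shown for their match, in capitals, to GAAANNGAA, the core of the interferon-stimulated response element.
Gbp2: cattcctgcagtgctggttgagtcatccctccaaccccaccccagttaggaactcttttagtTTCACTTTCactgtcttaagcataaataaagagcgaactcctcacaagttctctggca

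This pattern was found on either strand in the 250 bases before the start of 45.8% of the 24 interferon response genes with a window and of 7.97% of all tested genes with one. The matching stretch of Ifi44 held none of it.

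Of 18 genes of MHC class I, MHC class II and antigen presentation 4 rose, B2m (0.50), H2-K1 (0.36), H2-T23 (0.30) and Tapbp (0.30), and 0 fell. This count was 1 without GFP4 replicate II, GFP4 replicate III or Total replicate II. It was 0 when the common distribution was rebuilt without immunoglobulin genes, where B2m had an adjusted p of 0.403. Mitochondrially encoded genes, also at the top of the distribution, behaved alike, with mt-Co1 (0.78), mt-Co2 (0.29) and mt-Cytb (0.37) of 13 higher and 0 lower. Rebuilding without immunoglobulin genes left 0 called (adjusted p = 0.2 for mt-Co1 and 0.998 for mt-Cytb), and leaving out GFP4 replicate II or GFP4 replicate III left 1.

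Signalling genes of the transforming growth factor-beta (TGF-beta) and bone morphogenetic protein (BMP) family, which restrain HSC division, were higher in part. Of 25 genes 9 rose, 1 fell and 15 did not pass the test, with a median of 0.35. The ligand Tgfb1 was the fall, with 11.52, 11.59 and 11.47 in GFP4 and 12.64, 12.38 and 12.85 in Total (difference -1.10, SE 0.11, adjusted p = 3.95e-06). Among receptors, Acvr1, the type I receptor ALK2, had 7.78, 8.17 and 8.23 in GFP4 and 5.47, 6.49 and 6.20 in Total, a rise of 2.00 (SE 0.32, adjusted p = 0.000337). Bmpr2 (0.71), Acvr2a (0.81) and the co-receptor Eng (0.31) rose as well. So did the effector Smad3 (0.45) and the inhibitors Smad6 (0.78), Smad7 (1.32) and Ski. Smad4, the common mediator, had 12.38, 12.37 and 12.43 in GFP4 and 8.75, 9.15 and 12.05 in Total, where replicate III stood with GFP4, and did not pass the test (adjusted p = 0.217). The number of rises was 4 when replicate number was added as a block in a fit of only the 6 libraries.

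Of 16 genes of retinoic acid signalling 4 rose and 0 fell. Cyp26b1, which degrades retinoic acid (chromosome 6, 84571414 to 84593908), had 10.89, 10.97 and 10.97 in GFP4 and 8.95, 9.15 and 9.39 in Total, a rise of 1.78 (SE 0.19, adjusted p = 5.79e-06). Its means in GFP3, GFP2 and GFP1 were 9.87, 9.04 and 7.41. Rxra, a partner of retinoic acid receptors, had 10.26, 10.21 and 9.94 in GFP4 and 7.93, 7.95 and 8.16 in Total, a rise of 2.12 (SE 0.32, adjusted p = 0.000462). The receptor Rarb (0.98) and the retinol dehydrogenase Rdh10 (0.75) rose as well, while Rara and Rarg did not pass the test.

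Imprinted growth genes, several of which are known to be active in quiescent stem cells, gave 6 rises and 1 fall among 15, with a median of 0.73. Igf2r, the clearance receptor for Igf2, had 11.53, 11.39 and 11.37 in GFP4 and 10.76, 10.71 and 10.13 in Total (difference 0.90, SE 0.15, adjusted p = 0.000599). Dlk1 (1.41), Peg3 (1.32), Grb10 (0.49), Ndn and Cdkn1c rose too. Igf2 had 7.55, 7.80 and 7.94 in GFP4 and 5.82, 6.17 and 6.83 in Total, with no overlap but an adjusted p of 0.107. Slc22a3, an organic cation transporter that is a neighbour of Igf2r, went the other way, with 8.92, 9.34 and 8.81 in GFP4 and 11.66, 11.66 and 11.32 in Total, a fall of 2.52 (SE 0.16, adjusted p = 1.99e-08). Of 16 Hox genes 4 rose and 0 fell, all of the A cluster, Hoxa3 (0.66), Hoxa5 (0.60), Hoxa9 (0.50) and Hoxa10 (0.79). The 7 Hoxb genes of the list, Hoxb2 to Hoxb8, gave adjusted p of 0.365 to 0.993.

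Single chromatin genes differed in both directions. Over all genes other than immunoglobulin genes 4.76% rose and 5.03% fell, and of the 10246 averaging 10 ppm or more 1144 rose and 1167 fell. With small counts beside these shares, the PRC2 and PRC1 genes are described singly and not as results about their complexes. In the Polycomb repressive complex PRC2 the catalytic subunit Ezh2 fell while its homologue Ezh1 rose. Ezh2 had 10.57, 10.87 and 10.52 in GFP4 and 11.93, 11.80 and 11.63 in Total (difference -1.13, SE 0.14, adjusted p = 3.48e-05), and Ezh1 had 12.20, 12.51 and 12.44 in GFP4 and 11.75, 11.67 and 11.46 in Total (difference 0.76, SE 0.10, adjusted p = 8.46e-05). Over 11 PRC2 genes 2 rose, with Phf1 (0.58), and 2 fell, with Rbbp4 (-0.34). The call of Rbbp4 was lost without GFP4 replicate III (adjusted p = 0.117), Total replicate I (0.0707) or Total replicate II (0.0682). In PRC1, 3 of 18 rose, the ring finger protein Bmi1 (0.77) and the chromobox proteins Cbx7 (0.80) and Cbx6 (0.64), and 0 fell. Of 14 DNA methylation genes 5 fell and 0 rose. Dnmt1, the maintenance methyltransferase, had 12.54, 12.78 and 12.64 in GFP4 and 13.64, 13.36 and 13.53 in Total (difference -0.86, adjusted p = 3.43e-05), and its recruiter Uhrf1 fell by 1.31. The count was 3 without GFP4 replicate I.

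Genes of biosynthesis and respiration were lower by small amounts. Of 29 ribosome biogenesis genes 16 fell and 0 rose, with a median of -0.34, and 10 fell without GFP4 replicate I. Nop56, a core protein of box C/D ribonucleoproteins, had 12.56, 12.69 and 12.72 in GFP4 and 13.29, 13.20 and 13.19 in Total (difference -0.57, SE 0.08, adjusted p = 7.91e-05), and Nhp2, of the box H/ACA particles, fell by 0.80. Of 36 oxidative phosphorylation genes encoded in the nucleus 15 fell and 0 rose, with a median of -0.32. Cox5a, a subunit of cytochrome c oxidase, had 11.49, 11.35 and 11.69 in GFP4 and 12.05, 12.35 and 12.51 in Total (difference -0.79, SE 0.15, adjusted p = 0.0015). This count depended on single libraries, with 4 without GFP4 replicate I, 6 without GFP4 replicate II and 6 without Total replicate III. With replicate number as a block in a fit of only the 6 libraries, 2 oxidative phosphorylation and 5 ribosome biogenesis genes were lower. Of 20 glycolysis genes 6 rose and 3 fell. The glucose transporters Slc2a1 (0.59) and Slc2a3 (0.43) rose with the isoforms Eno2 (1.19) and Ldhb (0.55), and Pgk1 (-0.52), Gapdh (-0.29) and Ldha (-0.29) fell.

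The 5 remaining lists had 1 to 4 rises and 1 to 2 falls each. Over all genes other than immunoglobulin genes, 4.76% rose and 5.03% fell. Of the 10246 averaging 10 ppm or more, 1144 rose and 1167 fell. With counts this small, the genes below are described singly and not as results about their lists. Of 24 immediate early genes 1 rose, Klf6 (0.71), and 2 fell, Btg2 (-0.89) and Myc (-0.40). Myc had 12.93, 13.10 and 13.04 in GFP4 and 13.42, 13.46 and 13.39 in Total (SE 0.08, adjusted p = 0.00203). Cholesterol synthesis gave 3 rises, Insig1 (0.53) and Msmo1 (0.38) among them, and 1 fall, Fdps (-0.55), among 20, with 1 rise without GFP4 replicate I or Total replicate III. Leaving out Total replicate I gave 2 falls. Among 20 p53 targets 3 rose and 2 fell, and Plk2, a stress-induced kinase, had 12.24, 11.74 and 12.16 in GFP4 and 10.17, 10.88 and 10.18 in Total (difference 1.64, SE 0.32, adjusted p = 0.00675). Trp53, the gene of p53 itself, fell by 0.30, a call lost without GFP4 replicate I (adjusted p = 0.0752), GFP4 replicate II (0.0631) or Total replicate III (0.0597). On the list of age-associated HSC genes 3 of 22 rose and 2 fell, Dnmt3b (-0.45) and Mt2 (-1.93). The fall of Mt2 was lost without GFP4 replicate I (0.169), GFP4 replicate II (0.128), Total replicate II (0.116) or Total replicate III (0.156), and that of Dnmt3b without GFP4 replicate I (0.0537). On the adhesion and migration list 4 of 30 rose, Jam3 (1.09), Jam2 (0.69), Icam1 (0.57) and Adgrl4 (0.40), and 2 fell, Adgrg3 (-0.97) and Icam2 (-0.49). Icam2 lost its call without GFP4 replicate I (adjusted p = 0.052).

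Few genes set GFP4 apart from each of the 4 other groups by the test. It was above all of them in 4 genes (0.0144%) and below all in 12 (0.0433%). The 4 were Igf2bp2, Ahnak, Cyp26b1 and Gbp9. Igf2bp2, an RNA-binding protein of the Lin28 and Hmga2 axis of fetal HSCs (chromosome 16, 22059009 to 22163299), had 10.70, 10.56 and 10.85 in GFP4 and 8.86, 8.67 and 9.04 in Total, with means of 9.17, 8.51 and 8.05 in GFP3, GFP2 and GFP1. Its differences were 1.85 from Total (SE 0.23, adjusted p = 3.71e-05) and 1.54 from GFP3 (adjusted p = 0.017). Ahnak, a giant scaffold protein, had 11.65, 11.43 and 11.54 in GFP4 and 9.80, 10.46 and 9.87 in Total, a rise of 1.50. Gbp9, a guanylate-binding protein, rose by 1.71. Among the 12 below all others were Slc22a3, Tuba8, Cit, Arhgap19 and Sox6. Cit, the citron kinase of the midbody, fell by 1.72, Arhgap19, a GTPase-activating protein of mitosis, by 1.23, and Sox6, a cofactor of erythroid maturation, by 0.92.

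Total was seldom outside the range of the fractions. All 3 Total libraries lay above all 12 libraries of the fractions in 32 genes other than immunoglobulin genes (0.116%) and below them in 33 (0.119%). The same held for 3 immunoglobulin genes above (0.971%). By the test, 1 gene (0.00361%) was higher in Total than in each of the 4 fractions and 0 were lower.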

How the data were processed

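RNA of sorted mouse HSCs was amplified with SMART-Seq v4 and made into libraries with Nextera XT, per the labels' protocols. Transcripts were quantified with kallisto 0.43.0 and the build was GRCm38, per the submitters' processing notes. The deposited values are log2 expression per gene symbol, and all libraries share nearly 1 set of values, which is the mark of quantile normalization. The unit before the logarithm is not given in the sources used here, so read depth is unknown and its part in the precision was not assessed. Genes at a library's own lowest value ranged from 4038 in GFP3 replicate I to 9778 in Total replicate II. Linear values were taken as 2 to the power of the log2 value, minus 1, and ppm as their share of the library's sum on the usual ppm scale.

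Genes whose linear value reached 1 in 3 or more libraries were tested with limma 3.58.1 in R 4.3.3 (1 mean per group over all 15 libraries, trend and robust variance), with Benjamini-Hochberg adjustment and a threshold of 0.05. The test was tested on simulated data. A set of 34 gene lists was used, and the comparison and lists were chosen with earlier results of these data known. Named were the 12 largest rises and 12 largest falls past the threshold (mean of at least 10 ppm, groups apart), up to 2 genes each way per list by smallest p, the antibody constant genes with 3 variable segments, and up to 5 genes each way that set GFP4 apart from every group. Other list members given as examples were chosen after their values were seen. Gene coordinates are from GENCODE vM21 (GRCm38), and promoter sequences from RefSeq (GRCm38.p6). Alternatives covered normalization, filter, offset, libraries fitted, array weights, replicate block and each library left out. Each replicate number stands for 1 age and doxycycline time, but same-numbered GFP4 and Total libraries did not all deviate together, so no block was used in the reported test. Replicate I nevertheless stood apart on the second principal component in GFP3, GFP2, GFP1 and Total, and fits with the block are given below. Some list members are not reported here by name.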

Additional observations from a re-analysis of the deposited data

How the results depend on the processing

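The alternatives were followed singly only for the 123 genes named by the stated rules, not for the other list members given as examples. Of these 123 genes, 120 were called and 85 kept their call under every alternative that gave them a value (13 to 15 per gene). Only 1 of the 123 turned its direction. That gene, Ighe, was not called as reported (-1.24) and ranged from -2.16 to 0.61 with 1 library left out, the highest value being the 1 without Total replicate II. With 1 library left out, the genes higher in GFP4 ranged from 841 to 1291, the genes lower from 951 to 1345 and the immunoglobulin genes lower from 57 to 100, with fewer samples in each fit. A fit of only the GFP4 and Total libraries gave 783 higher, 829 lower and 48 immunoglobulin genes. Calls lost in that fit included those of Ighm (adjusted p = 0.107), Jchain (0.133), Gapdh (0.069) and Cpa3 (0.0653). Lost calls given gene by gene above are in the main those with 1 library left out. Requiring a mean of 10 ppm left 10337 genes tested and gave 148 higher and 283 lower by at least 2-fold. Rebuilding the common distribution without immunoglobulin genes gave 1137 higher and 1552 lower, so that the share of higher calls was 42.3%, against 48.6% as reported. Same-numbered GFP4 and Total libraries deviated from their group means with correlations of 0.00494, -0.172 and 0.261, and GFP4 replicate II with Total replicate I with 0.379, so the numbers as labelled were not taken as pairs. This rests on the labels of GFP4 replicates I and II, whose exchange was not tested. Such correlations were not computed for GFP3, GFP2 and GFP1. On the second principal component, replicate I stood apart from II and III in GFP3, GFP2, GFP1 and Total, so replicate number was shared structure there. With replicate number as a block over 15 libraries the counts were 1632 higher, 1600 lower and 93 immunoglobulin genes, and with the block in only the 6 libraries they were 597, 728 and 54. Igkc (adjusted p = 0.113) and Myc (0.0632) were among the genes that lost their call with the block in only the 6 libraries. Because the unit before the logarithm is unknown, low values cannot be told from counting noise.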
